A study of Mus musculus with 6 samples.

Results

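The MHC class I genes of the mouse H2 complex and the genes of their peptide loading were compared between Pim1-/- and WT myeloid-derived suppressor cells. The members were the rows of the authors' deposited table named H2-K1, H2-K2, H2-D1, H2-L or H2-Bl, those named H2-Q, H2-T or H2-M with a digit, the class I heavy chain genes Gm8909, Gm11127 and C920025E04Rik, and B2m, Tap1, Tap2, Tapbp, Tapbpl, Erap1 and Nlrc5. The rule chose genes by name, and it found 42 rows of the 24312 in the table. Of these, 35 were heavy chain rows, 38 lay on chromosome 17 and 30 had been tested by the authors.

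A class I molecule is a heavy chain bound to beta-2-microglobulin and a short peptide, and it shows fragments of proteins made inside the cell to CD8 T cells and natural killer cells. Peptides are made by the proteasome, pumped into the endoplasmic reticulum by the TAP transporter, trimmed there by the aminopeptidase ERAP1 and fitted into the heavy chain by tapasin. Myeloid-derived suppressor cells are immature monocyte-like and neutrophil-like cells that accumulate in tumours and hold back T cells. Interferon raises many genes of this pathway, and NLRC5 is the transactivator of class I promoters.

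The study held 3 libraries of Pim1-/- cells, knocked out for the kinase gene Pim1, and 3 libraries of WT cells, 6 in all, described by the submitters as biological replicates. Both genotypes carry the strain label C57BL/6. Bone marrow from the femurs had spent 7 days in culture in 40 ng/mL GM-CSF together with 40 ng/mL IL-6, the cells are labelled CD11b+ Gr1+, and total RNA was sequenced with a Smart-seq2 protocol. The sources used here state neither the age of the mice nor how the Pim1-/- line was made. Each genotype has 1 pooled value for a gene in the table, read as FPKM (fragments mapped to a gene, scaled by transcript length and library size), so no library can be shown on its own and the spread between libraries enters only through the authors' test. A log2 fold change here is the Pim1-/- value over the WT value, and its error is that change divided by the deposited test statistic. A gene is called, and said to have risen or fallen, where the deposited adjusted p is under 0.05.

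Pim1 itself stood at 22.7 FPKM in Pim1-/- cells and 90.2 FPKM in WT cells (log2 fold change -1.99, error 0.25, adjusted p = 0.000831 by the authors' deposited table), 3.98-fold lower in the knockout but not absent. Of 5 markers listed for the gate, 4 had a row, and these were present in both genotypes. Ly6g had no row under that name, so its level could not be read. Itgam, which encodes CD11b, had 151.8 FPKM in Pim1-/- cells and 138.8 FPKM in WT cells. The Gr1 antigen gene Ly6c2 stood at 997.1 FPKM in Pim1-/- cells and 392.4 FPKM in WT cells. Of 7 neutrophil markers tested, 5 were called higher in Pim1-/- cells. The list summed to 9144 FPKM in Pim1-/- cells and 2454 FPKM in WT cells, most of it from S100a8 and S100a9. S100a8 had 6257 FPKM in Pim1-/- cells and 1308 FPKM in WT cells. Mmp8, with 767.9 FPKM in Pim1-/- cells and 735.1 FPKM in WT cells, was not called. Cxcr2, with 3.41 FPKM in Pim1-/- cells and 3.29 FPKM in WT cells, was not called either. Monocyte and dendritic cell markers went both ways. Of 5 monocyte markers, Ly6c2 and Fcgr1 were called higher and Cd14 lower, and Ccr2 and Csf1r were not called. Cd14 had 153.4 FPKM in Pim1-/- cells and 265.5 FPKM in WT cells. The list summed to 1603 FPKM in Pim1-/- cells and 1119 FPKM in WT cells, with Ly6c2 as its largest part in both genotypes. Of 7 dendritic cell markers 3 were tested, and Itgax was called lower, with 24 FPKM in Pim1-/- cells and 59 FPKM in WT cells. Clec9a, with 0.0322 FPKM in Pim1-/- cells and 0.846 FPKM in WT cells, was not called (adjusted p = 0.541 by the authors' deposited table). Bst2, which is also an interferon response gene, was called higher, with 646.6 FPKM in Pim1-/- cells and 245.3 FPKM in WT cells. The list summed to 671.1 FPKM in Pim1-/- cells and 305.5 FPKM in WT cells. Bst2 made up most of that sum in both genotypes, so the higher sum is that of Bst2, while Itgax went the other way. The 6 macrophage markers held no call and summed to 3485 FPKM in Pim1-/- cells and 2972 FPKM in WT cells. The 6 T cell markers and 4 natural killer cell markers were each under 1 FPKM in both genotypes, and Ms4a1 and Ncr1 were listed at 0. These are bulk values, so fewer cells of a type and less RNA per cell cannot be told apart, and the part of these marker lists in the class I values was not tested.

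Over all genes the authors' deposited table calls 1498 of 11079 tested rows, which is 13.5%, with 752 higher (6.79%) and 746 lower (6.73%) in Pim1-/- cells. Of the 30 tested class I rows, 19 were called (63.3%), 7 of them higher and 12 lower. The median log2 fold change of the 30 was -0.47, against 0.01 over all tested rows, and it was 0.09 among members with a mean of at least 10 FPKM. The direction went in part with the role of the gene. The 7 rows of loading and regulation all lay above 0, and 4 of them were called higher and 0 lower. The changes of B2m, Erap1 and Tapbpl were smaller than their errors. The 23 tested heavy chain rows had a median of -1.29, with 12 called lower and 3 higher, and 17 of the 23 lay below 0. The deposited p-values call more rows than the test statistic does when it is read as a normal deviate. Under that reading with Benjamini-Hochberg adjustment, 3.31% of all rows and 9 of the 30 members are called, with 1 higher, Tap1, and 8 lower.

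**Figure D1:**
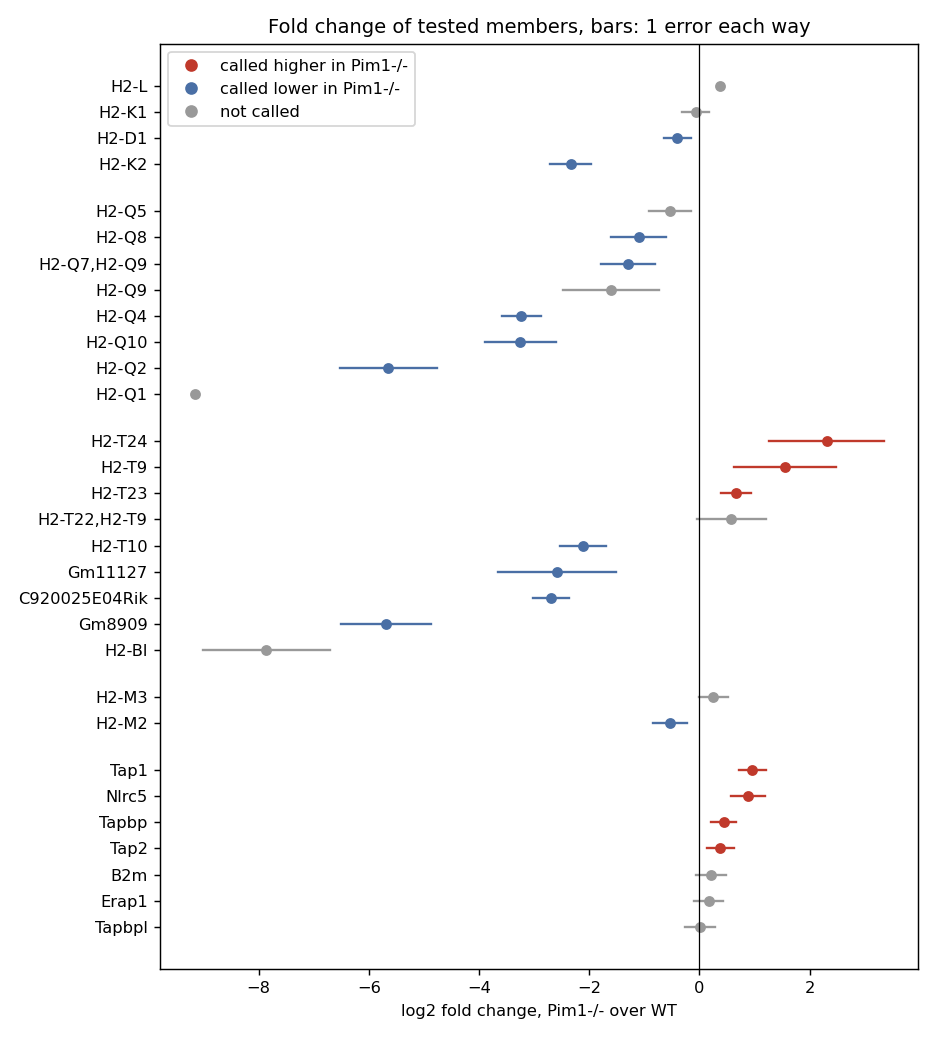
Log2 fold change, Pim1-/- over WT, of the tested class I rows grouped by family, with bars for the error implied by the deposited test statistic. All 7 rows of loading and regulation and 0 of the 8 Q region rows lie above 0. No bars are drawn for H2-L and H2-Q1, whose errors are 8.32 and 45.40.

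The classical heavy chains carried most of the class I signal and changed little. H2-D1, at chr17:35400039-35462354 in the table's own coordinates, whose build was not settled and is not that of the RefSeq positions given with the promoters, was the most abundant heavy chain row, with 990.8 FPKM in Pim1-/- cells and 1304 FPKM in WT cells. It fell by 0.40 on the log2 scale (error 0.25, adjusted p = 0.0352 by the authors' deposited table), 1.32-fold, a call that is lost when the statistic is read as a normal deviate (adjusted p = 0.825). H2-K1, at chr17:34132957-34137278, was the other abundant row, with 696 FPKM in Pim1-/- cells and 730.9 FPKM in WT cells. Its log2 fold change of -0.07 was smaller than its error of 0.24, and it was not called (adjusted p = 0.836 by the authors' deposited table). Both encode the molecules that present peptides to CD8 T cells in C57BL/6 mice, and the ratio of H2-D1 to H2-K1 was 1.42 in Pim1-/- cells and 1.78 in WT cells. Together these rows made up 92.8% of the summed heavy chain FPKM in Pim1-/- cells and 90.2% in WT cells. The sum over all 35 heavy chain rows was 1819 FPKM in Pim1-/- cells and 2256 FPKM in WT cells, a ratio of 0.81.

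The remaining 33 heavy chain rows summed to 131.8 FPKM in Pim1-/- cells and 221.4 FPKM in WT cells, a ratio of 0.60. Of the 21 of them that were tested, 11 were called lower and 3 higher, and their median log2 fold change was -1.61. H2-K2, a transcribed pseudogene in RefSeq that neighbours H2-K1, had 2.84 FPKM in Pim1-/- cells and 14.4 FPKM in WT cells. It fell by 2.34 (error 0.37, adjusted p = 0.000831 by the authors' deposited table), 5.08-fold, while H2-K1 beside it differed by less than its error. H2-L had 2.1 FPKM in Pim1-/- cells and 1.62 FPKM in WT cells and was not called (adjusted p = 0.933 by the authors' deposited table). H2-L shares its listed locus with H2-D1 and H2-Q1, and the H-2b haplotype of C57BL/6 is known to have no L gene, so its value is uncertain.

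**Figure D2:**
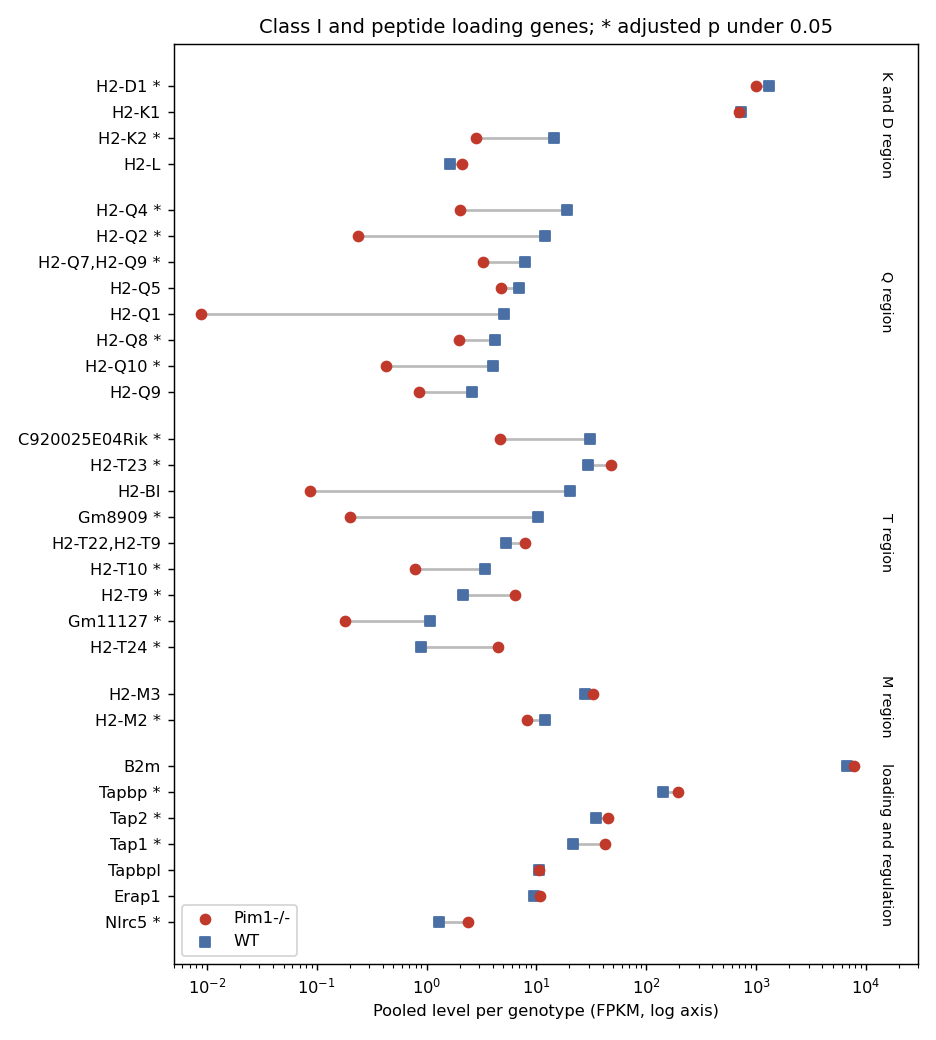
FPKM of each of the 30 tested class I rows in Pim1-/- cells (circles) and WT cells (squares) on a log axis, 1 pooled value per genotype, by family, with an asterisk for a called row. B2m, H2-D1 and H2-K1 stand highest in both genotypes, and the rows that separate most between the genotypes are low ones of the Q and T regions.

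Promoter sequences are shown because the heavy chain genes differed in the direction and size of their changes. For 28 of the 42 members a promoter was found in RefSeq (GRCm38.p6). Below are the 200 bases before the start of transcription, 5′ to 3′ on the strand of the gene, for the abundant pair H2-K1 and H2-D1, for H2-Q4 and H2-Q10, which fell 9.39-fold and 9.51-fold, for H2-Q2 and Gm8909, which fell most among the called rows, and for H2-T23, which rose. Capitals mark matches on either strand to GAANTGAAA, the core of the interferon-stimulated response element of class I promoters, to GGGGATTCC, the kappa B site of enhancer A, to TGACGC, the X2 box core, to CCAAT, the Y box core, and to a longer form of the response element with 2 bases between a pair of GAAA repeats.
H2-K1, chr17:34000348-34000547, minus strand: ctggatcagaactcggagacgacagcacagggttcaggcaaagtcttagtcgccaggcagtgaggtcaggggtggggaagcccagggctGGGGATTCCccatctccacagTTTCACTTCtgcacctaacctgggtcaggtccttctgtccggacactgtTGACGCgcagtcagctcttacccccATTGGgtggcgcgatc
H2-D1, chr17:35262894-35263093, plus strand: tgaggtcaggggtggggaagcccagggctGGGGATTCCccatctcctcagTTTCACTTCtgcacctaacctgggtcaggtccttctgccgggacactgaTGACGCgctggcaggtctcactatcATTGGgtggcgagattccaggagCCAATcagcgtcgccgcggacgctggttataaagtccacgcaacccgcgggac
H2-Q4, chr17:35379417-35379616, plus strand: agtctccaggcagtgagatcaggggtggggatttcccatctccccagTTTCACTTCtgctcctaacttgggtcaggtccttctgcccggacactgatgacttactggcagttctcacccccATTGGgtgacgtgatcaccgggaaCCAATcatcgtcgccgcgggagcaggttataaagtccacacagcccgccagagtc
H2-Q10, chr17:35469889-35470088, plus strand: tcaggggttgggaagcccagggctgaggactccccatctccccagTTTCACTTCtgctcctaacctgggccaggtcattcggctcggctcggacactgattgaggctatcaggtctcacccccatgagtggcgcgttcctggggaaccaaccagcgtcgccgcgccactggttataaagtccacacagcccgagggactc
H2-Q2, chr17:35342107-35342306, plus strand: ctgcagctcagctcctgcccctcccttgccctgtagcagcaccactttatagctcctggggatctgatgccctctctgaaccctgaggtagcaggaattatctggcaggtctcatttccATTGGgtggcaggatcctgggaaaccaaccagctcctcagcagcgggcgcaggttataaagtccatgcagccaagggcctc
Gm8909, chr17:36168538-36168737, minus strand: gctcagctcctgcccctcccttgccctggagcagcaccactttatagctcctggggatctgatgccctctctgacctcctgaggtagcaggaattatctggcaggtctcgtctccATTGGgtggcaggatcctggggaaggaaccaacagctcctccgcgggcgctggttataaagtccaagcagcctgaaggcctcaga
H2-T23, chr17:36032702-36032901, minus strand: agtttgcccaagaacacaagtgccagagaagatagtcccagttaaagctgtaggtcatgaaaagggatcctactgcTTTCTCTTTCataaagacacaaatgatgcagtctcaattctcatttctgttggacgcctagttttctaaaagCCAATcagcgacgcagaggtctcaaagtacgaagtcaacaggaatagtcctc

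In H2-K1 and H2-D1 the kappa B match was followed closely by the response element, beginning 111 and 90 bases before the start in H2-K1 and 171 and 150 bases before it in H2-D1. Both also held the X2 and Y box cores. H2-Q4 and H2-Q10 held the response element core, at 153 and 155 bases, without the kappa B letters. H2-Q2 and Gm8909 held only a CCAAT match, at 81 and 85 bases. H2-T23 held the longer form of the element at 124 bases and a CCAAT match at 52 bases. Over the RefSeq promoter windows, which are of equal length and reach past the start, GAANTGAAA was found in 7 of 24 heavy chain promoters (29.2%) and in 2.15% of all 27025 promoters. GGGGATTCC was found in 4 of the 24 (16.7%) and in 0.296% of all. TGACGC was found in 4 (16.7%) against 8.37% of all, and CCAAT in 21 (87.5%) against 41.1% of all. The longer form was found in 3 heavy chain promoters (12.5%), H2-T22, H2-T23 and Gm11127, and in those of B2m and Erap1, against 3.99% of all. Among the called rows with either form of the element, H2-T23 rose, and H2-D1, H2-Q4, H2-Q10, Gm11127 and the merged row with H2-Q7 fell. A match is a run of letters and does not show a bound factor. GAANTGAAA and GGGGATTCC were chosen after these promoters were read, so their shares among heavy chains are a description and are no evidence of an excess over all promoters.

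The Q region, which encodes Qa-2 and related nonclassical molecules, lay below 0 throughout. This held for all 8 tested rows, where 47.9% of all tested rows did, and 5 of the 8 were called lower (62.5%) and 0 higher. The 9 rows summed to 13.5 FPKM in Pim1-/- cells and 61.7 FPKM in WT cells, which is 4.56-fold lower, and their share of the heavy chain sum was 0.744% in Pim1-/- cells and 2.73% in WT cells. H2-Q4, at chr17:35516562-35521619, was the most abundant of them in WT cells, with 2 FPKM in Pim1-/- cells and 18.8 FPKM in WT cells. It fell by 3.23 (error 0.36, adjusted p = 0.000831 by the authors' deposited table), 9.39-fold. H2-Q2, at chr17:35479278-35482667, had 0.237 FPKM in Pim1-/- cells and 11.9 FPKM in WT cells. It fell by 5.65 (error 0.88, adjusted p = 0.000831 by the authors' deposited table), 50.2-fold. H2-Q10, known as a secreted class I molecule of the liver, had 0.426 FPKM in Pim1-/- cells and 4.05 FPKM in WT cells. It fell by 3.25 (error 0.65, adjusted p = 0.000831 by the authors' deposited table), 9.51-fold. Each of these 3 rows shares its listed locus with no other class I row. Their calls hold when the statistic in the authors' deposited table is read as a normal deviate (adjusted p = 3.23e-16, 2.12e-08 and 4.12e-05).

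The Qa-2 genes had smaller fold changes. The merged row of H2-Q7 and H2-Q9, whose products are the Qa-2 antigen that is tethered to the membrane by a lipid anchor, had 3.25 FPKM in Pim1-/- cells and 7.94 FPKM in WT cells. It fell by 1.29 (error 0.49, adjusted p = 0.00156 by the authors' deposited table), 2.45-fold. H2-Q8 had 1.97 FPKM in Pim1-/- cells and 4.23 FPKM in WT cells and fell by 1.10 (error 0.50, adjusted p = 0.00345 by the authors' deposited table). Neither call holds when the statistic in the authors' deposited table is read as a normal deviate (adjusted p = 0.164 and 0.387). A separate row for H2-Q9 had 0.858 FPKM in Pim1-/- cells and 2.62 FPKM in WT cells and was not called (adjusted p = 0.0947 by the authors' deposited table). It has the same locus as the merged row, and the rows at that locus summed to 4.1 FPKM in Pim1-/- cells and 10.6 FPKM in WT cells. H2-Q5, a transcribed pseudogene in RefSeq, had 4.74 FPKM in Pim1-/- cells and 6.88 FPKM in WT cells without a call (adjusted p = 0.0813 by the authors' deposited table). H2-Q1 had 0.00895 FPKM in Pim1-/- cells and 5.12 FPKM in WT cells, yet its error was 45.40 on the log2 scale and it was not called (adjusted p = 0.578 by the authors' deposited table). It is listed at the locus of H2-D1 and H2-L, and the 3 rows there summed to 992.9 FPKM in Pim1-/- cells and 1310 FPKM in WT cells.

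**Figure D3:**
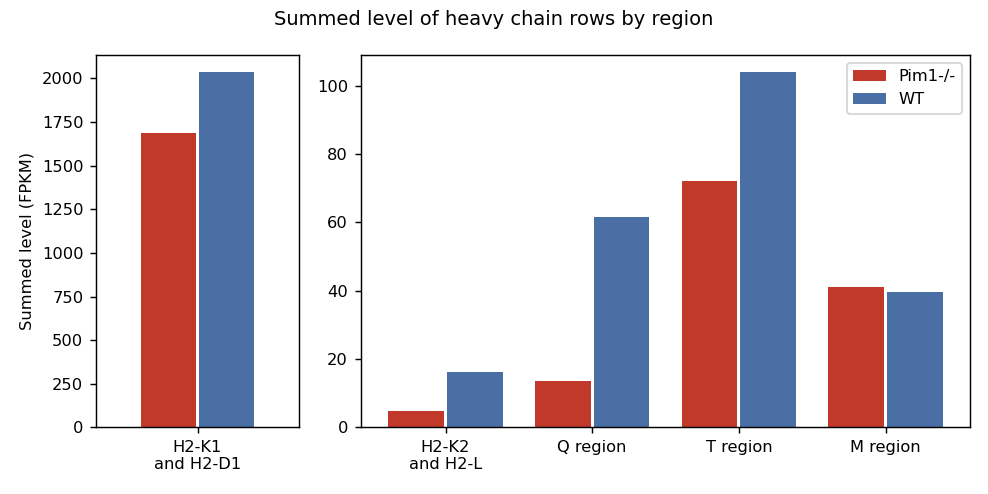
Summed FPKM of the class I heavy chain families in Pim1-/- and WT cells, 1 pooled value per genotype as a bar, with H2-K1 and H2-D1 in a panel of their own scale. H2-K1 with H2-D1 sum to 1687 FPKM in Pim1-/- cells and 2035 FPKM in WT cells, and the Q region to 13.5 FPKM in Pim1-/- cells and 61.7 FPKM in WT cells.

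The T region was divided. Its 9 tested rows held 4 calls lower and 3 higher (77.8% called), with 5 rows below 0 and 4 above, and the 10 rows summed to 72.1 FPKM in Pim1-/- cells and 103.9 FPKM in WT cells. The 4 rows above 0 started 6.50 to 6.55 Mb from Pim1, and the 5 rows below 0 started 6.55 to 6.67 Mb from it. Those above 0 came in pairs that share a listed locus, so the rows of a pair have the same start. A930015D03Rik, a row outside the class I set at the locus of H2-T23, went the other way. It had 0.284 FPKM in Pim1-/- cells and 3.13 FPKM in WT cells and was not called (adjusted p = 0.5 by the authors' deposited table). H2-T23, which encodes Qa-1, the ligand of the inhibitory receptor CD94/NKG2A, had 47.3 FPKM in Pim1-/- cells and 29.7 FPKM in WT cells. It rose by 0.67 (error 0.27, adjusted p = 0.000831 by the authors' deposited table), 1.6-fold. H2-T24, listed at the same locus, had 4.45 FPKM in Pim1-/- cells and 0.896 FPKM in WT cells and rose by 2.31 (error 1.04, adjusted p = 0.0214 by the authors' deposited table). H2-T9 had 6.34 FPKM in Pim1-/- cells and 2.16 FPKM in WT cells and rose by 1.55 (error 0.92, adjusted p = 0.0275 by the authors' deposited table). These 3 calls, the only ones higher among the heavy chains, all belong to rows that share a locus with another row. None of the 3 holds when the statistic in the authors' deposited table is read as a normal deviate (adjusted p = 0.224, 0.38 and 0.752). H2-T22 encodes a ligand of gamma delta T cell receptors, and its merged row with H2-T9 had 7.9 FPKM in Pim1-/- cells and 5.3 FPKM in WT cells without a call (adjusted p = 0.374 by the authors' deposited table).

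The other T region rows lay far below 0. C920025E04Rik, a class I heavy chain gene at chr17:36245975-36248621, had 4.7 FPKM in Pim1-/- cells and 30.5 FPKM in WT cells, which put it above H2-T23 in WT cells and below it in Pim1-/- cells. It fell by 2.70 (error 0.33, adjusted p = 0.000831 by the authors' deposited table), 6.5-fold. Gm8909, at chr17:36301389-36305482, had 0.203 FPKM in Pim1-/- cells and 10.4 FPKM in WT cells. It fell by 5.69 (error 0.81, adjusted p = 0.000831 by the authors' deposited table), 51.5-fold. H2-T10, a transcribed pseudogene in RefSeq, had 0.786 FPKM in Pim1-/- cells and 3.4 FPKM in WT cells and fell by 2.11 (error 0.42, adjusted p = 0.000831 by the authors' deposited table). All 3 are also called when the statistic is read as a normal deviate. Gm11127 had 0.181 FPKM in Pim1-/- cells and 1.08 FPKM in WT cells and fell by 2.58 (error 1.07, adjusted p = 0.0427 by the authors' deposited table), a call lost under that reading (adjusted p = 0.27). H2-Bl, at chr17:36217134-36221194 and a transcribed pseudogene in RefSeq, had 0.0875 FPKM in Pim1-/- cells and 20.3 FPKM in WT cells. Its log2 fold change was -7.86 with an error of 1.16, it missed the call in the authors' deposited table, where its adjusted p was 0.0648, and it passes when the statistic is read as a normal deviate (adjusted p = 2.46e-09). With H2-T3 included, these 6 rows summed to 6.07 FPKM in Pim1-/- cells and 65.9 FPKM in WT cells, a ratio of 0.09.

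Some rows were nearly silent in Pim1-/- cells and not in WT cells. Among the 6624 tested rows of the whole table with at least 5 FPKM in WT cells, 5 stood in Pim1-/- cells at under 5% of that level, a rule chosen after the values were seen. Of these, 4 were class I heavy chain rows, the called rows H2-Q2 and Gm8909 and the uncalled rows H2-Bl and H2-Q1, and the other was the Y-linked gene Eif2s3y, with 0.0191 FPKM in Pim1-/- cells and 6.79 FPKM in WT cells. Another Y-linked gene, Ddx3y, had 0.0103 FPKM in Pim1-/- cells and 2.56 FPKM in WT cells. Neither Eif2s3y nor Ddx3y was called (adjusted p = 0.537 and 0.385 by the authors' deposited table). Like H2-Bl, both pass when the statistic in the authors' deposited table is read as a normal deviate (adjusted p = 0.00607 and 3.25e-05). The X-linked transcript Xist was present in both genotypes, with 7.21 FPKM in Pim1-/- cells and 5.21 FPKM in WT cells, and the part of sex in the class I values was not tested. In the opposite direction 2 of 6650 rows passed, Plac8 and Ccl8, and 0 were class I rows. Rows under 5 FPKM in WT cells could not enter the first count. Among them were H2-Ea-ps and 2410017I17Rik, neighbours of the class I rows described below. Of the 51 rows of the whole table called lower by 4-fold or more, 8 were class I rows, and of the 82 called higher by that much, 1 was, H2-T24. Of the 13 tested heavy chain rows that share a listed locus with no other class I row, 9 were called lower and 0 higher, with a median of -2.58. The 10 that share a locus with another class I row held 3 calls in each direction and a median of -0.01. Rows outside the class I set were not considered in this division.

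Heavy chain genes resemble each other, which bears on how reads are assigned among them. In the GENCODE M21 transcripts, 0% to 63.8% of the 50-base windows of a heavy chain gene were also found in a transcript of another gene, with a median of 10.6% over 30 genes. The share was 0% for H2-Bl, 8.03% for H2-Q10, 8.74% for H2-Q2, 14.3% for Gm8909, 16.5% for H2-K2 and 24.3% for H2-Q4, so most windows of these lower rows had no exact match in another gene of that annotation. Near matches were not counted and would add to these shares. In the T region it was 28.8% for H2-T23, 42.9% for H2-T10, 44.7% for H2-T22 and 63.8% for Gm11127. In the Q region it was 32% for H2-Q6, 34.9% for H2-Q7 and 40.1% for H2-Q5. The values of these T and Q region genes are less certain for that reason. C920025E04Rik, H2-L, H2-Q8, H2-Q9 and H2-T9 were not among the 30 genes, so their shares are unknown. The sources used here do not say how the authors divided reads that match several genes.

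The M region was quiet. Of its 12 rows, 10 were untested and under 1 FPKM in both genotypes, among them the H2-M10 genes, which are known from vomeronasal neurons. H2-M3, which presents N-formylated peptides of bacteria and mitochondria, had 32.9 FPKM in Pim1-/- cells and 27.6 FPKM in WT cells, and its log2 fold change of 0.25 was smaller than its error of 0.26 (adjusted p = 0.289 by the authors' deposited table). H2-M2 had 8.22 FPKM in Pim1-/- cells and 12 FPKM in WT cells and fell by 0.54 (error 0.31, adjusted p = 0.0298 by the authors' deposited table), a call lost when the statistic is read as a normal deviate (adjusted p = 0.727). In all, 12 of the 42 class I rows were untested, and the highest value among them was 0.132 FPKM. They include H2-T3, which encodes the TL antigen of the gut epithelium, and the merged row of H2-Q6 and H2-Q8. H2-M1, H2-M9, H2-M10.4, H2-M10.5 and H2-M10.6 were listed at 0 in both genotypes.

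The light chain and the loading genes all lay above 0. B2m, at chr2:121945844-122011925, encodes beta-2-microglobulin and ranked 6 among tested rows in both genotypes, with 7809 FPKM in Pim1-/- cells and 6770 FPKM in WT cells. Its log2 fold change of 0.21 was smaller than its error of 0.28 and it was not called (adjusted p = 0.478 by the authors' deposited table). The ratio of B2m to the heavy chain sum was 4.29 in Pim1-/- cells and 3 in WT cells. Tap1 and Tap2 encode the paired chains of the peptide pump. Tap1, at chr17:34324501-34334170, had 41.7 FPKM in Pim1-/- cells and 21.5 FPKM in WT cells and rose by 0.96 (error 0.24, adjusted p = 0.000831 by the authors' deposited table), 1.94-fold. Tap2 had 45.3 FPKM in Pim1-/- cells and 34.8 FPKM in WT cells and rose by 0.38 (error 0.24, adjusted p = 0.0406 by the authors' deposited table), 1.3-fold. The ratio of Tap2 to Tap1 was 1.09 in Pim1-/- cells and 1.62 in WT cells, and the difference between the changes of these genes was not tested.

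Tapbp, the gene of tapasin, which holds the empty heavy chain at the pump, had 194.1 FPKM in Pim1-/- cells and 143.4 FPKM in WT cells. It rose by 0.44 (error 0.23, adjusted p = 0.0136 by the authors' deposited table), 1.35-fold. Its relative Tapbpl, the peptide editor TAPBPR, had 10.5 FPKM in each genotype and was not called (adjusted p = 0.99 by the authors' deposited table). Erap1 had 10.8 FPKM in Pim1-/- cells and 9.59 FPKM in WT cells and was not called (adjusted p = 0.553 by the authors' deposited table). Nlrc5 was low, with 2.41 FPKM in Pim1-/- cells and 1.31 FPKM in WT cells, and rose by 0.88 (error 0.31, adjusted p = 0.000831 by the authors' deposited table), 1.84-fold. Only the Tap1 call among the loading genes holds when the statistic in the authors' deposited table is read as a normal deviate (adjusted p = 0.00357), against 0.839 for Tap2, 0.62 for Tapbp and 0.117 for Nlrc5.

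The steps before and around loading were read from lists of pathway genes chosen with earlier results of these data known. Of 6 immunoproteasome and activator genes, 1 was called higher and 0 lower, and their median log2 fold change was 0.32. The called share of 16.7% is near the 13.5% of all tested rows. The called gene was Psmb9, an interferon-inducible catalytic subunit encoded beside Tap1, with 194.1 FPKM in Pim1-/- cells and 138.5 FPKM in WT cells (adjusted p = 0.00615 by the authors' deposited table). The Psmb9 call is lost when the statistic in the authors' deposited table is read as a normal deviate (adjusted p = 0.486). The 3 constitutive catalytic subunits held no call, and Psmb5 had 395.6 FPKM in Pim1-/- cells and 333.3 FPKM in WT cells. The 9 genes of folding and translocation in the endoplasmic reticulum also held no call, with a median of 0.11, and the most abundant, the translocon subunit Sec61b, had 865.1 FPKM in Pim1-/- cells and 782.7 FPKM in WT cells. Of 18 regulators of class I transcription, 4 were called higher and 0 lower (22.2%) around a median of -0.03, and 2 stay called under the normal-deviate reading. They include Nlrc5 and the interferon signal transducer Stat2, with 10.8 FPKM in Pim1-/- cells and 4.4 FPKM in WT cells (adjusted p = 0.000831 by the authors' deposited table). The 22 interferon response genes were all called higher, with a median of 2.02, against -1.29 for the 23 tested class I heavy chain rows. Under the normal-deviate reading 19 of the 22 stay called.

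**Figure D4:**
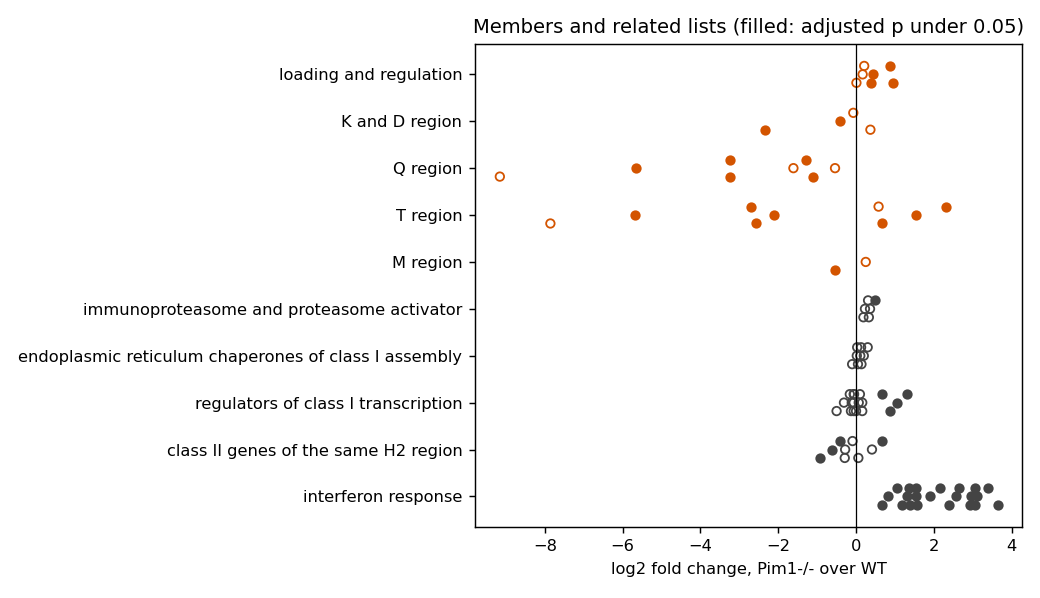
Log2 fold change, Pim1-/- over WT, of each tested gene in the class I families and 5 of the related lists, with filled points for called genes. The interferon response list has a median of 2.02, loading and regulation 0.38 and the Q region -2.42, and Nlrc5 stands in both the loading group and the regulator list.

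Other antigen-presenting molecules gave mixed counts, to be read against the 13.5% called over all rows. Of 7 tested class I-like genes outside the H2 complex, 2 were called lower and 0 higher (28.6%). These were the lipid-presenting molecule Cd1d1, with 11.2 FPKM in Pim1-/- cells and 27.9 FPKM in WT cells, and Procr, the endothelial protein C receptor, with 18.9 FPKM in Pim1-/- cells and 26.1 FPKM in WT cells (adjusted p = 0.000831 and 0.0168 in the authors' deposited table). The Procr call is lost when the statistic in the authors' deposited table is read as a normal deviate (adjusted p = 0.696). Of 9 class II genes, 1 was called higher and 3 lower (44.4%), with H2-Aa, the I-A alpha chain, at 454.6 FPKM in Pim1-/- cells and 859 FPKM in WT cells. H2-Eb1, an I-E beta chain, was called higher with 150.8 FPKM in Pim1-/- cells and 95.7 FPKM in WT cells, and H2-DMb2 lower with 12.3 FPKM in Pim1-/- cells and 19 FPKM in WT cells. Under the normal-deviate reading of the authors' deposited table, the class II counts are 0 higher and 1 lower, with H2-Aa kept (adjusted p = 0.00498) and H2-Eb1 and H2-DMb2 lost (adjusted p = 0.135 and 0.664). Of 10 cross-presentation genes, 1 was called higher, Rab27a, with 5.26 FPKM in Pim1-/- cells and 2.39 FPKM in WT cells, and 3 lower (40.0%). The lower ones include Ifi30, a lysosomal thiol reductase, with 350.8 FPKM in Pim1-/- cells and 727.7 FPKM in WT cells, and Cybb, the NADPH oxidase subunit, with 156.8 FPKM in Pim1-/- cells and 234.9 FPKM in WT cells. Under the normal-deviate reading of the authors' deposited table, 1 of the 3 lower calls remains, Ifi30 (adjusted p = 0.000352), and Cybb is lost (adjusted p = 0.24). The 6 tested genes of a list of myeloid receptors, not all of them known to bind class I, held no call. The most abundant of the list, Lilrb4a, had 482.1 FPKM in Pim1-/- cells and 428.6 FPKM in WT cells.

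The class I genes on chromosome 17 lie near the gene that was altered. In the coordinates of the deposited table the 38 rows start 4.43 Mb (Tapbp) to 7.99 Mb (H2-M2) from Pim1. Of the 26 tested among them, 6 were called higher and 12 lower (69.2%), with a median of -0.82. The 84 other tested genes between the outermost class I rows held 9 calls higher and 7 lower (19.0%), with a median of 0.04. Within 10 Mb of Pim1 and without the class I rows, 47 of 292 tested rows were called (16.1%), against 12.5% of the rest of chromosome 17 and 13.3% of the other chromosomes. Of the neighbours called lower, 2 are named after their values were seen, H2-Ea-ps, listed at 0 in Pim1-/- cells and at 2.83 FPKM in WT cells, and Cfb, with 27.9 FPKM in Pim1-/- cells and 90.5 FPKM in WT cells. The neighbour 2410017I17Rik, also named after its values were seen, had 0.0254 FPKM in Pim1-/- cells and 3.49 FPKM in WT cells. It was not called (adjusted p = 0.544 by the authors' deposited table), but like H2-Bl it passes when the statistic is read as a normal deviate (adjusted p = 0.0242). An effect of losing Pim1 and a difference of the chromosome segment inherited with the altered gene cannot be told apart for these genes in this design.

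**Figure D5:**
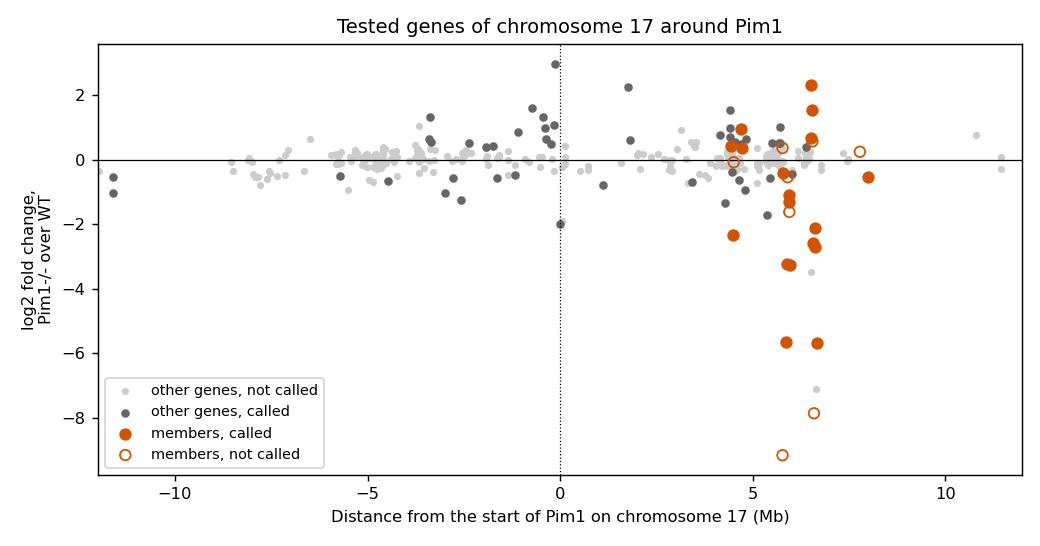
Log2 fold change, Pim1-/- over WT, against distance from the start of Pim1 in Mb for tested rows of chromosome 17, with class I rows as large points, filled where called. The class I rows lie 4.43 to 7.99 Mb away and hold most of the lowest points there. The uncalled neighbour 2410017I17Rik, outside the class I set, is also among the lowest, at -7.10. Of the 84 other tested genes between the class I rows, 9 were called higher and 7 lower.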

How the data were processed

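Total RNA of 3 Pim1-/- and 3 WT cultures was sequenced by the submitters with a Smart-seq2 protocol, per the labels' protocols. The authors deposited 1 table with a pooled value per gene and genotype. Those deposited values were read as FPKM from the layout, since the header names neither unit nor software. The authors' deposited p-values and q-values (here adjusted p) were used as given, and their deposited test statistic, a score, was used to derive errors. The sources used here name neither aligner nor counter. The submitters' processing notes name mm10, yet 0 of 37 member rows overlap their gene in GENCODE M21, which is annotated on mm10, so the build of the table's coordinates was not settled. They serve for order and distance, counted from 1.

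Log2 fold changes were computed from the 2 values, because part of the deposited log2 column was unreadable. The depth per library is unknown and precision comes only from the deposited statistic. Tests with libraries as replicates, planned for per-library values, were not made. Every member row with at least 1 FPKM in either genotype is named, and from each pathway list up to 3 called genes with the smallest adjusted p, or the most abundant if none was called. Some genes that this rule names are not reported here. Members and lists were chosen with earlier results of these data known. The short response element and kappa B letters were chosen after the promoters were read. Transcript windows replaced a comparison of proteins. Alternatives covered a normal-deviate reading of the statistic, an adjusted p under 0.01, filters on the mean, pseudocounts and rescaling. Scripts were tested on simulated data and used Python 3.11.15, pandas 2.3.3, numpy 2.4.6, scipy 1.17.1 and matplotlib 3.10.9.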

Additional observations from a re-analysis of the deposited data

How the results depend on the processing

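The 7 class I rows called higher became 1 when the statistic was read as a normal deviate, 3 at an adjusted p under 0.01 and 4 among rows with a mean of at least 10 FPKM. The 12 called lower became 8, 9 and 4 under the same settings, and 11 with a mean of at least 1 FPKM. Filters on the mean leave fewer rows. Pathway genes called higher numbered 25, and 14 with a mean of at least 10 FPKM. Pathway genes called lower numbered 8, and became 3 under the normal deviate and 4 at an adjusted p under 0.01. The median log2 fold change of -0.47 became 0.09 with a mean of at least 10 FPKM, a filter that drops most low heavy chain rows, and lay between -0.48 and -0.26 under the pseudocounts, rescalings and other filters. The summed heavy chain ratio of 0.81 was 0.84 with both genotypes scaled to the same sum. No paired analysis was possible because the table pools the libraries of each genotype, and leaving out a library was not run for the same reason.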
